A study of Homo sapiens with 10 samples.

Results

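The genes described here are 8 receptors and ligands of the glial cell line-derived neurotrophic factor (GDNF) family, out of 58381 gene rows: the co-receptors GFRA1, GFRA2 and GFRA3, the receptor RET, the ligands GDNF, NRTN and ARTN, and NCAM1. They were measured by RNA sequencing of poly(A)-selected RNA in GIST-T1, an established human line from a metastatic gastrointestinal stromal tumour (GIST) with intact succinate dehydrogenase. The study disrupted CTCF insulators (sites bound by CTCF, a protein at many boundaries of chromosome loops) and asked how gene expression differed from the parental genotype. There were 4 derivative lines, with the genotypes given as InsE, InsF, InsG and InsH, and the control with the genotype given as wild type. Each had 2 libraries. The labels used here give neither the site edited in each line, nor whether a line is 1 clone, nor whether the paired libraries are separate cultures. The p-values therefore reflect library-to-library spread alone, part of which may be technical.

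The members were picked by symbol. GFRA1 was the starting point because earlier results of these data showed it far higher in the lines than in control, so its levels against control and its difference between InsE and the other lines are given as a description with no test. Its paralogues, receptor, ligands and alternative partner NCAM1 were added by name. Of the 8 members, 6 passed the filter on low counts. GFRA2 and ARTN did not.

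GDNF family ligands are secreted dimers that signal through a pair of partners. Each ligand binds its preferred co-receptor of the GFR-alpha group, which is held on the membrane by a lipid anchor: GDNF binds GFRA1, neurturin (NRTN) binds GFRA2 and artemin (ARTN) binds GFRA3. The complex then activates RET, a receptor tyrosine kinase, while GDNF on GFRA1 can also act through the adhesion molecule NCAM1. In the gut, GDNF made by mesenchyme guides the RET-positive precursors of the enteric nervous system.

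By GENCODE release 29 on hg38, GFRA1 (ENSG00000151892.14) lies at chr10:116056925-116273467 on the minus strand and RET (ENSG00000165731.18) elsewhere on that chromosome at chr10:43077027-43130351 on the plus strand. GDNF (ENSG00000168621.14) lies at chr5:37812677-37839686 and GFRA3 (ENSG00000146013.10) at chr5:138252379-138274671, both on the minus strand. NRTN (ENSG00000171119.2) lies at chr19:5823802-5828324, ARTN (ENSG00000117407.16) at chr1:43933320-43937241 and NCAM1 (ENSG00000149294.16) at chr11:112961247-113278436, all on the plus strand. No other annotated gene overlaps GFRA1, RET, NRTN or ARTN. GDNF is overlapped along its whole length by its antisense gene GDNF-AS1, and NCAM1 by 2 antisense genes with 25 and 3 counts in all 10 libraries together.

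RefSeq promoter windows (GRCh38.p14, 250 bases before to 50 after a start) were matched for 6 of the 8 members, with 13 windows in all. Those of the receptor, its co-receptor and the ligand that results below turn on are shown, for each gene the window with the most CpG dinucleotides, in capitals. The GFRA1 window is chr10:116272426-116272725 on the minus strand, the GDNF window chr5:37839992-37840291 on the minus strand and the RET window chr10:43076819-43077118 on the plus strand.
GFRA1: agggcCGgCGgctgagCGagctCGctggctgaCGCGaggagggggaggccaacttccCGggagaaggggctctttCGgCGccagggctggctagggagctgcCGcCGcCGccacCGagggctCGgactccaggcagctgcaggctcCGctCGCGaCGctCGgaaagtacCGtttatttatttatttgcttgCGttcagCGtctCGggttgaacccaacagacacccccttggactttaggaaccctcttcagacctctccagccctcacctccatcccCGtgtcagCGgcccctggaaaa
GDNF: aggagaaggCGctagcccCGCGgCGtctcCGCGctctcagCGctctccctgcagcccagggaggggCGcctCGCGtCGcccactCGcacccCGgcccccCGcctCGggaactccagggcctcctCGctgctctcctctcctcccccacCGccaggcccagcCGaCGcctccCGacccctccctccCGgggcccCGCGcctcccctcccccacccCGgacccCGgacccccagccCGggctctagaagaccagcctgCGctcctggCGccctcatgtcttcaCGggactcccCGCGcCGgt
RET: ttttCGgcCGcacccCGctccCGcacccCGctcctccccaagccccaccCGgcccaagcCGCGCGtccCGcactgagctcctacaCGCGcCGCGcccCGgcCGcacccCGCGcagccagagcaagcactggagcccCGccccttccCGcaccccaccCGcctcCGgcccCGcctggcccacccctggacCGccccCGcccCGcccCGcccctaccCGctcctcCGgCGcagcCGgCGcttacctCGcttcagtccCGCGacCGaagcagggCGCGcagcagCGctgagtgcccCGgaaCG
The GFRA1 window held 25 CpGs at 64.3% GC, the GDNF window 32 CpGs at 77.0% GC and the RET window 41 CpGs at 78.7% GC. The median over all 35116 RefSeq windows of this length was 14 CpGs and 58.7% GC. The windows of a gene's other starts were poorer, down to 4 CpGs for GFRA1 (4 windows), 6 for GDNF (4 windows) and 10 for RET (2 windows). The letters CCCTC, searched on both strands, occurred 2 times on each strand of the GFRA1 window, 4 times on the printed and 1 time on the opposite strand of the GDNF window, and not in the RET window. They occur in 71.2% of all windows of this length.

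The libraries held 9.4 to 31.0 M (mega) counts in InsE, 14.8 to 28.8 in InsF, 11.1 to 42.5 in InsG, 12.0 to 22.9 in InsH and 20.1 to 30.8 in control, and replicate 1 was the deeper library of every pair. The 2 libraries of a line differed by 6.18 to 7.16 times the sampling noise (chi-square per degree of freedom), and the 2 of control by 1.41 times. Comparisons with control may therefore rest on close to 1 independent control library. The analysis with the control libraries merged into 1, given below, allows for this. All 9 GIST and interstitial cell of Cajal markers were at 1 TPM (transcript share corrected for length) or more in every library. Markers of enteric neurons and glia, the cells for which RET is best known, summed to 0.8 to 3.13 TPM per library in the lines and 1.04 to 1.15 TPM in control, with ELAVL4 and S100B at 0 in every library. Immune, epithelial and endothelial markers each summed to at most 1.78 TPM. The smooth muscle markers summed to 386 to 404 TPM in InsE, 658 to 700 in InsF, 519 to 555 in InsG, 571 to 602 in InsH and 395 to 402 in control, with DES at 0 in every library and 2 of the 5 markers at 1 TPM or more in both libraries of each group. In such bulk samples fewer cells of a type and less RNA per cell cannot be told apart.

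GFRA1, the co-receptor that presents GDNF to RET, was well detected in InsF, InsG and InsH and scarce in InsE and in control. It had 1.12 and 0.423 CPM (counts scaled by TMM library sizes) in the InsE libraries, 12.8 and 13.7 in InsF, 11.9 and 12.3 in InsG, 11.6 and 11.2 in InsH, against 0.503 and 0.308 CPM in control. The 6 libraries of InsF, InsG and InsH were all far above both control libraries, and 1 of the 2 InsE libraries lay between the control libraries. The counts behind these values were 39 in InsE, 574 in InsF, 648 in InsG, 403 in InsH, against 21 in control, each summed over 2 libraries. The fitted log2 change over control was 1.12 ± 0.36 (SE) in InsE, 4.95 ± 0.25 in InsF, 4.82 ± 0.25 in InsG, 4.73 ± 0.25 in InsH, and 3.90 ± 0.24 for the mean of the 4 lines. The InsE value rests on replicate 1: without that library the change was -0.01. On the length-corrected TPM scale InsE and control both averaged 0.19 TPM. The summed smooth muscle markers, led by ACTA2, were also highest in InsF, InsG and InsH, as given above. ACTA2 averaged 410 TPM over the lines against 241 in control, while SMTN went the other way, at 139 against 157. For the mean of the lines, 1 of the 3 tested markers was called higher and 1 lower. The part of these markers in the GFRA1 pattern was not tested.

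The order of the GFRA1 levels was InsF, InsG, InsH, InsE and control. InsF averaged 13.2 ± 0.67 CPM (SD, n = 2), InsG 12.1 ± 0.23, InsH 11.4 ± 0.27 and InsE 0.772 ± 0.49, against 0.405 ± 0.14 in control. The 3 higher neighbours spanned 0.21 on the log2 scale and did not differ beyond their spread (edgeR, adjusted p = 0.883). That test used differences that the choice of GFRA1 did not use. None of the 6 tested members passed it, against 0.0900% of all 15554 genes tested (14 genes). With the replicate number as a block 436 genes passed, and again none of the 6 members.

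**Figure D1:**
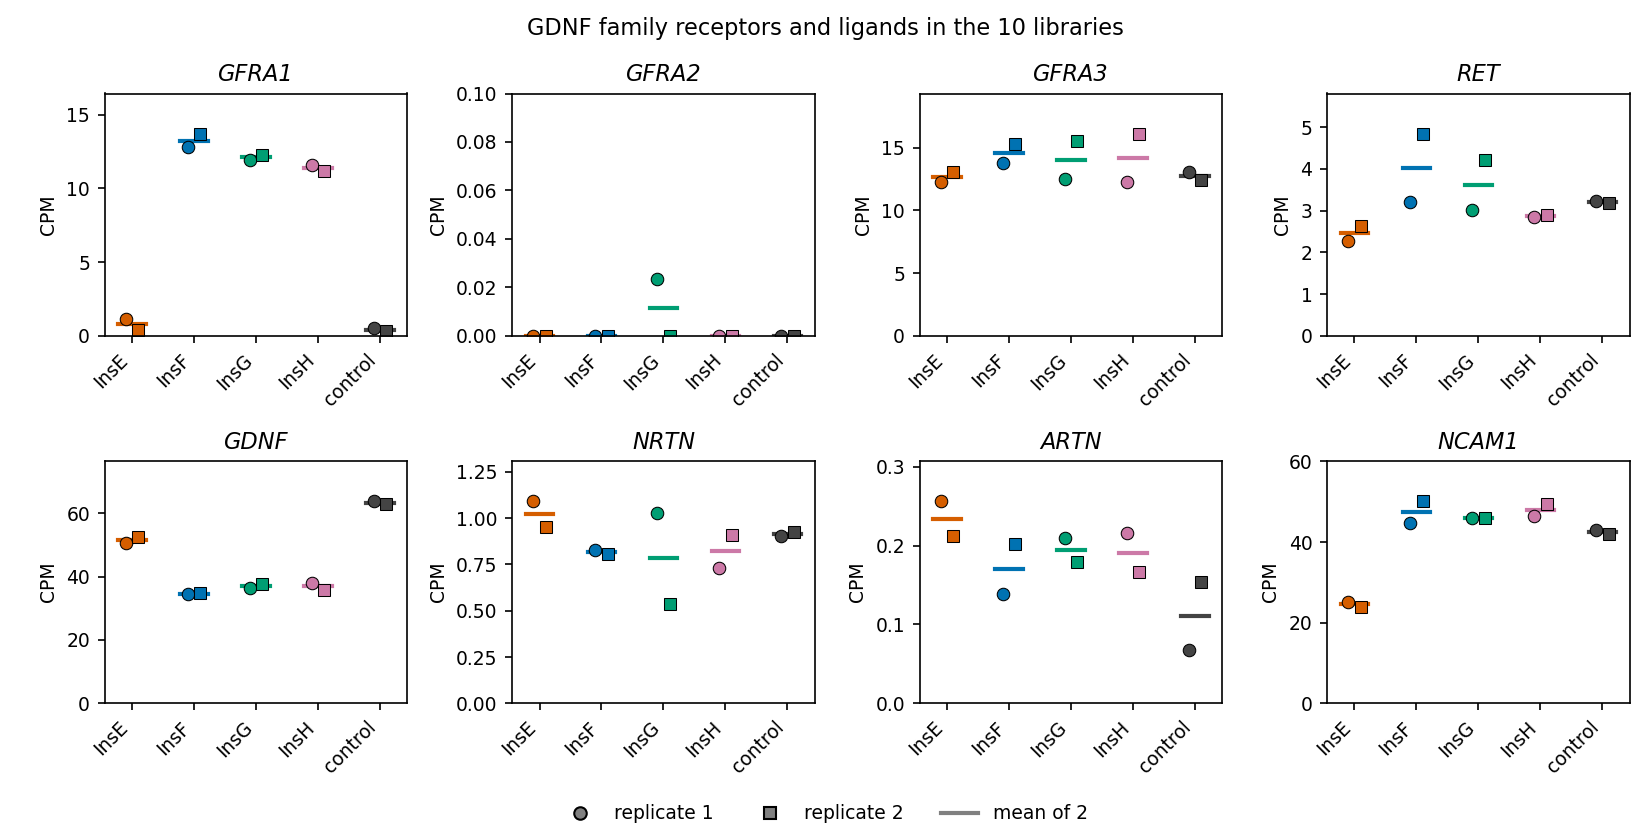
CPM (vertical axis, linear, from 0, a different range in each panel) of the 8 members in each library of InsE, InsF, InsG, InsH and control. Circles are replicate 1, squares replicate 2 and bars their mean. GFRA1 lies between 11.2 and 13.7 CPM in InsF, InsG and InsH and at 1.12 CPM or less in InsE and control, GDNF is lower in the 4 lines than in control, and NCAM1 is lower in InsE than in the other groups.

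GFRA2, the co-receptor of NRTN, had 1 count in a replicate 1 library of InsG and 0 in the other 9 libraries. A count of 0 over the 2 control libraries allows up to 0.0608 CPM. GFRA3, the co-receptor of ARTN, was present in every library, and no line passed the test. It had 12.3 and 13.1 CPM in InsE, 13.8 and 15.3 in InsF, 12.5 and 15.5 in InsG, 12.3 and 16.1 in InsH, against 13.1 and 12.4 CPM in control. The groups overlapped except InsF, where both libraries were above both control libraries. The share of all genes that separate from control in this way was not computed, so no shift is read from it. The log2 change over control was -0.01 ± 0.14 in InsE, 0.18 ± 0.14 in InsF, 0.10 ± 0.14 in InsG, 0.13 ± 0.14 in InsH, with adjusted p of 0.963, 0.389, 0.657 and 0.578.

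The share of GFRA1 among the co-receptors is set by the level for which it was chosen and is given as a description. Compared per transcript length, GFRA1 made up 2.7% and 1.0% of the summed TPM of the 3 co-receptors in InsE, 30.2% and 25.3% in InsF, 28.6% and 20.2% in InsG, 23.6% and 21.6% in InsH, against 1.3% and 2.3% in control. GFRA3 stayed the more abundant of the pair in all 10 libraries: it averaged 10.2 ± 0.071 TPM in InsE, 12.5 ± 0.86 in InsF, 12.1 ± 1.6 in InsG, 12.1 ± 2.1 in InsH, against 10.3 ± 0.28 TPM in control. The TPM of GFRA1 depends on the mean transcript length that RSEM estimated, which was 6282 and 6454 bases in InsE, 4128 and 4870 in InsF, 4559 and 5799 in InsG, 5794 and 4729 in InsH, against 5477 and 2098 bases in control, the last from 6 counts.

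RET, the signalling receptor of all these ligands, was transcribed at a low level in every group, and no line passed the test. It had 2.27 and 2.64 CPM in InsE, 3.21 and 4.84 in InsF, 3.01 and 4.21 in InsG, 2.85 and 2.90 in InsH, against 3.22 and 3.18 CPM in control. Both InsE and both InsH libraries were below both control libraries, while InsF and InsG each had 1 library well above them. No shift is read from these positions, since the share of all genes that separate so was not computed. The log2 change was -0.41 ± 0.24 in InsE, 0.30 ± 0.23 in InsF, 0.13 ± 0.23 in InsG, -0.16 ± 0.24 in InsH, with adjusted p of 0.264, 0.389, 0.937 and 0.698. These estimates rest on 96 to 176 counts per line and 158 in control. InsE against the mean of the other lines, at -0.50 ± 0.21, did not pass the test either (adjusted p = 0.115).

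Set against RET on the TPM scale, GFRA1 was the scarcer transcript in InsE and control and the more abundant one in the other 3 lines. The ratio of GFRA1 to RET was 0.224 and 0.103 in InsE, 3.43 and 2.83 in InsF, 3.03 and 2.17 in InsG, 3.47 and 2.45 in InsH, against 0.0828 and 0.195 in control. No library of InsF, InsG or InsH had a ratio under 1 and no library of InsE or control reached 1. RET itself averaged 1.11 ± 0.20 TPM in InsE, 1.54 ± 0.049 in InsF, 1.5 ± 0.071 in InsG, 1.24 ± 0.41 in InsH, against 1.46 ± 0.33 TPM in control.

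GDNF, the ligand that binds GFRA1, was lower in all 4 lines than in control, most in the 3 lines with high GFRA1. It had 50.5 and 52.5 CPM in InsE, 34.6 and 34.7 in InsF, 36.5 and 37.7 in InsG, 38.1 and 35.9 in InsH, against 63.7 and 63.0 CPM in control. All 8 line libraries lay below both control libraries, and the InsE libraries lay between control and the other lines. The share of all genes with such a separation was not computed. GDNF fell by 0.30 ± 0.06 on the log2 scale in InsE (edgeR, adjusted p = 0.0066), by 0.87 ± 0.06 in InsF (adjusted p = 1.66e-05), by 0.77 ± 0.06 in InsG (adjusted p = 4.26e-05) and by 0.77 ± 0.06 in InsH (adjusted p = 4.88e-05). Averaged over the lines it fell by 0.68 ± 0.05 (adjusted p = 9.7e-06). The falls in InsF, InsG and InsH passed the test in all 18 alternative analyses, and that in InsE in 12 of the 18, over which its adjusted p ran between 0.000431 and 0.105. The InsE call missed the threshold without control replicate 1 (adjusted p = 0.063), without control replicate 2 (0.0503), without InsE replicate 1 (0.0584), with the control libraries merged into 1 (0.0509) and in both analyses of TPM (0.103 and 0.105). The summed GIST markers were also lower in the lines, at 2650 to 2670 TPM in InsE, 2730 to 2760 in InsF, 2840 to 2850 in InsG, 2830 to 2850 in InsH, against 3530 to 3540 TPM in control. Of the 9 markers, 6 were called lower and 0 higher for the mean of the lines. In each of InsG and InsH 1 was called higher. PDGFRA averaged 32.6 TPM over the lines, against 29.1 in control. The part of these markers in the GDNF result was not tested.

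The size of the GDNF change differed between lines. Its range over the 4 lines was 0.57 on the log2 scale (adjusted p = 0.000965), and InsE exceeded the mean of the other 3 lines by 0.50 ± 0.05 (adjusted p = 0.000117). The comparison of InsE with the other lines was chosen with earlier results of these data known, so its p-values are not those of a planned test. On TPM the range was 0.35 and 0.37 and missed the threshold (adjusted p = 0.222 and 0.224, against 5.57e-08 to 0.224 over all alternatives), and so did the excess of InsE over the other lines (0.28 and 0.29, adjusted p = 0.0741 and 0.0742, against 3.25e-09 to 0.0742). GDNF was the most abundant member per transcript length in every group, at 25.1 ± 0.23 TPM in InsE, 19.5 ± 1.1 in InsF, 22.2 ± 1.6 in InsG, 20.1 ± 3.3 in InsH, against 31.9 ± 0.014 TPM in control. The ratio of GDNF to GFRA1 on this scale was 90.4 and 250 in InsE, 3.64 and 4.56 in InsF, 4.78 and 6.94 in InsG, 6.81 and 4.74 in InsH, against 228 and 133 in control. Ligand transcripts outnumbered those of the co-receptor in all 10 libraries.

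GDNF-AS1, which is transcribed from the opposite strand over GDNF, moved differently. It had 3.94 and 4.34 CPM in InsE, 1.35 and 1.35 in InsF, 1.87 and 2.69 in InsG, 1.25 and 1.99 in InsH, against 1.68 and 1.69 CPM in control. In InsE it was 1.28 ± 0.26 higher on the log2 scale (adjusted p = 0.00636), and in the other lines it did not pass the test (adjusted p = 0.352 to 0.837). The InsE value missed the threshold when control replicate 1 was left out (adjusted p = 0.0614) and on TPM (0.0613 and 0.077), against 0.000354 to 0.077 over all alternatives. Whether the counting used strand is not given in the sources used here, so reads of the pair cannot be told apart where they overlap.

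NRTN, the ligand of GFRA2, was measured from 28 to 50 counts per line and 45 in control. It had 1.09 and 0.952 CPM in InsE, 0.828 and 0.807 in InsF, 1.03 and 0.537 in InsG, 0.733 and 0.911 in InsH, against 0.905 and 0.924 CPM in control. Neither a line nor the mean of the lines passed the test. ARTN, the ligand of GFRA3, had 10 counts in InsE, 7 in InsF, 11 in InsG, 7 in InsH, against 5 in control, too few to be tested. It lay between 0.138 and 0.256 CPM in the 8 line libraries, against 0.0671 and 0.154 CPM in control. The control values rest on 2 and 3 counts, so no difference is read from them.

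NCAM1, the adhesion molecule through which GDNF and GFRA1 can act without RET, set InsE apart from all other groups. It had 25.2 and 24.0 CPM in InsE, 44.8 and 50.1 in InsF, 46.0 and 46.1 in InsG, 46.6 and 49.5 in InsH, against 42.9 and 42.0 CPM in control. The InsE libraries were far below all others, and the 6 libraries of the other lines were all a little above control. The share of all genes that separate so was not computed, and no rise is read from it in those lines. NCAM1 fell by 0.78 ± 0.08 on the log2 scale in InsE (adjusted p = 0.000127). The log2 change was 0.16 ± 0.07 in InsF, 0.12 ± 0.07 in InsG, 0.18 ± 0.07 in InsH, with adjusted p of 0.152, 0.28 and 0.122. Its range over the 4 lines was 0.96 (adjusted p = 0.000126), and InsE was lower than the mean of the other 3 lines by a log2 change of -0.93 ± 0.07 (adjusted p = 1.37e-05). As for GDNF, the comparison of InsE with the other lines was chosen with earlier results known. The fall in InsE, the range and the difference between InsE and the other lines passed the test in all 18 alternative analyses.

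Leaving out GFRA1, the other 5 tested members gave 2 calls in InsE (GDNF and NCAM1) and 1 in each of InsF, InsG and InsH (GDNF). Of all genes tested, 23.2% were called in InsE, 22.3% in InsF, 20.3% in InsG, 18.4% in InsH. For the mean of the lines 1 of the 5 was called, against 27.6% of all genes. For any difference among the 4 lines 2 of the 5 were called, against 13.2%, and for InsE against the mean of the other lines 2 of the 5, against 24.2%. With 5 genes, and comparisons that share the control libraries, these shares are given as background only.

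**Figure D2:**
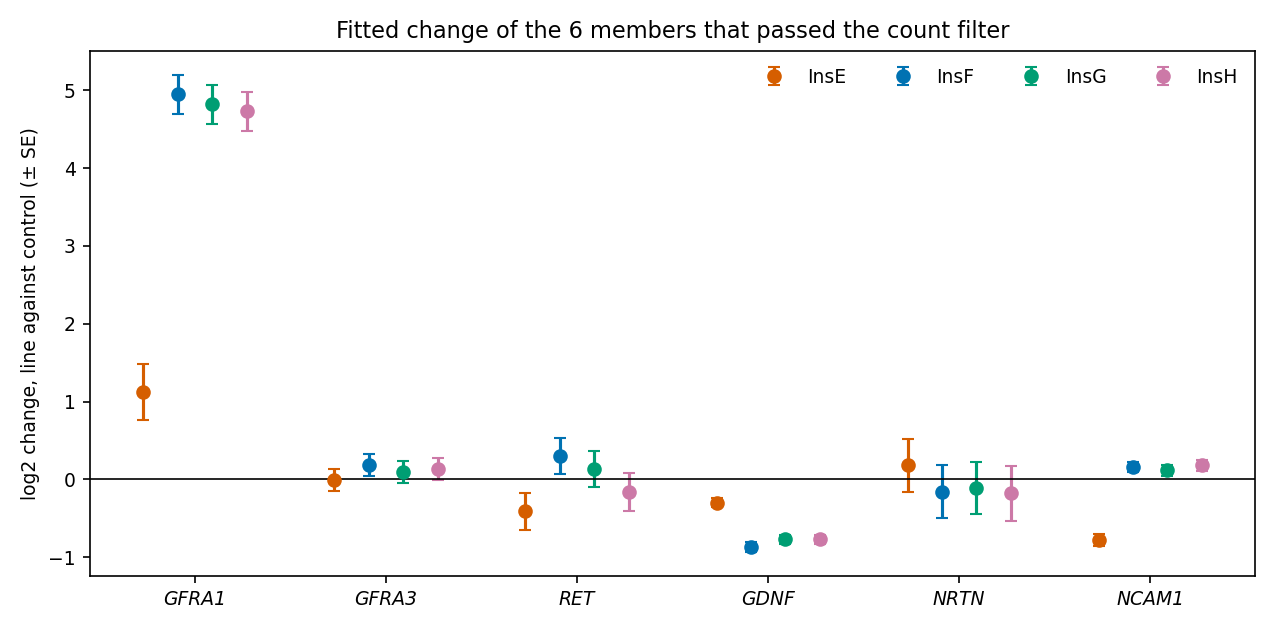
Fitted log2 change of each line over control (vertical axis) for the 6 members that passed the count filter, with bars of ± 1 SE. GFRA1 reaches 4.73 to 4.95 in InsF, InsG and InsH and 1.12 in InsE, GDNF is below 0 in every line, and NCAM1 is below 0 in InsE.

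The transcripts most like GFRA1 across the libraries were found by the root mean square difference, over all 10 libraries, of log2 CPM (prior count of 2) less its control mean. Of 12869 genes compared, the 6 with the smallest difference were GLUL (0.45), DCN (0.56), ARHGAP25 (0.58), PBX3 (0.70), YBX3 (0.83) and SULT1A1 (0.97), against a median of 3.65. For GLUL, at 0 counts in InsE and control, and ARHGAP25, at 0 in control, the prior count sets the values there, so no order is read among the 6. They lie on chromosomes 1, 2, 9, 12 and 16, none on that of GFRA1. SULT1A1 has near-identical copies between which RSEM may split reads. The other members were not among the near genes: GFRA3 was at 3.52, NCAM1 at 3.57, RET at 3.59, NRTN at 3.78 and GDNF at 4.27.

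DCN, which encodes the matrix proteoglycan decorin, averaged 2.59 ± 0.37 CPM in InsE, 44.6 ± 1.2 in InsF, 36.5 ± 0.51 in InsG, 40.6 ± 0.66 in InsH, against 1.01 ± 0.046 CPM in control. PBX3, a homeobox transcription factor, averaged 0.229 ± 0.17 CPM in InsE, 4.77 ± 0.11 in InsF, 5.56 ± 0.27 in InsG, 4.78 ± 0.32 in InsH, against 0.261 ± 0.15 CPM in control. Both were picked for their likeness to GFRA1, and both were far lower in InsE and control than in the other 3 lines. In InsE the log2 change over control was 1.41 ± 0.15 for DCN and 0.03 ± 0.47 for PBX3. GLUL, the glutamine synthetase gene, had 0 counts in InsE and in control and averaged 2.28 ± 0.09 CPM in InsF, 2.22 ± 0.23 in InsG, 2.39 ± 0.021 in InsH. Against the limit of 3 counts over the control pair this is at least 37.5-fold higher in InsF, 36.5-fold in InsG and 39.3-fold in InsH. ARHGAP25 had 3 counts in InsE, 78 in InsF, 75 in InsG, 49 in InsH, against 0 in control.

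**Figure D3:**
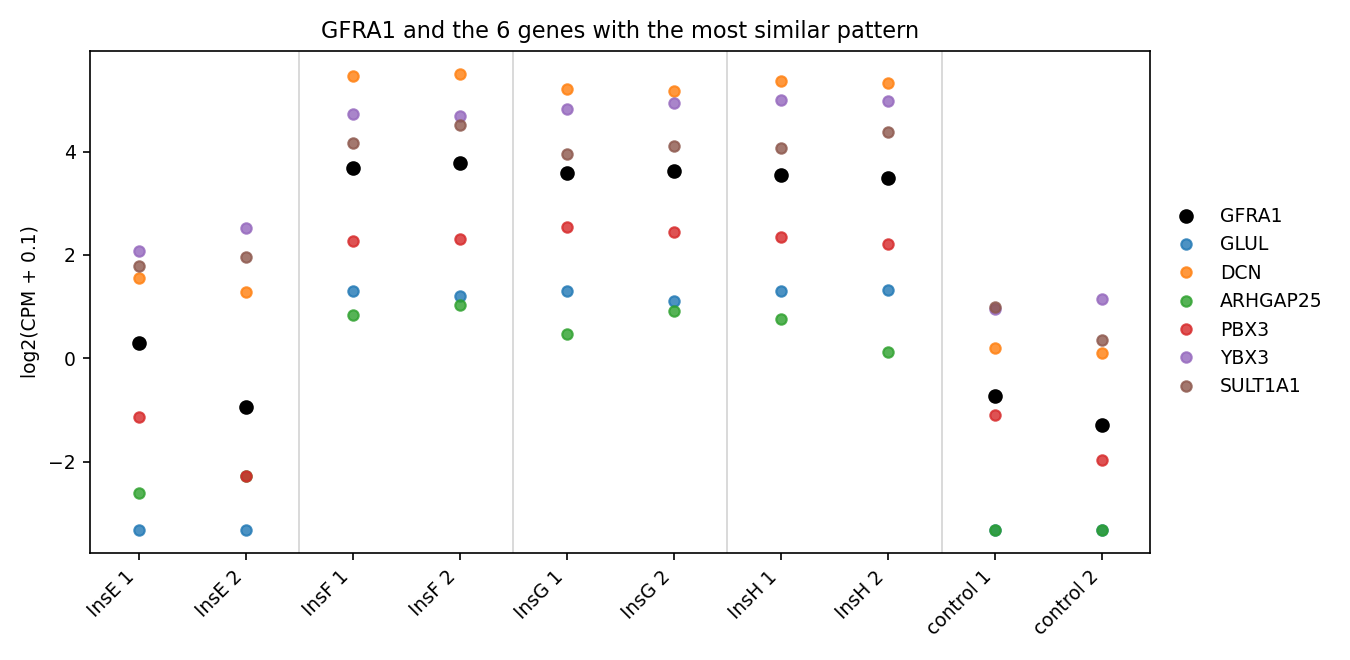
log2(CPM + 0.1) (vertical axis) of GFRA1 (black) and the 6 genes with the most similar pattern in each of the 10 libraries, with vertical lines between groups. Each of the 7 genes is higher in the 6 libraries of InsF, InsG and InsH than in the 4 of InsE and control, and GLUL is at 0 CPM in InsE and control.

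Around GFRA1 itself, 25 other genes start within 1 Mb, of which 3 passed the filter on low counts. HSPA12A, a gene of the HSP70 family that starts 576.8 kb away, fell by 0.47 ± 0.04 on the log2 scale in the mean of the lines (adjusted p = 3.98e-05), and its log2 change was between -0.54 and -0.40 in the single lines. SHTN1, the shootin gene of neuronal polarity, changed by 0.12 ± 0.09 and the antisense gene RP11-129M16.4 by 0.20 ± 0.20, and neither passed the test (adjusted p = 0.41 and 0.494). No tested neighbour was called higher.

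Of further ligands and co-receptors of the family that are no members, GFRA4 and GFRAL had 0 counts in all 10 libraries. GDF15, a stress-induced cytokine whose receptor is GFRAL with RET, averaged 2.33 ± 0.0067 CPM in InsE, 4.43 ± 0.081 in InsF, 3.56 ± 0.91 in InsG, 3.34 ± 0.083 in InsH, against 0.991 ± 0.022 CPM in control. It rose in every line, with 1.73 ± 0.19 on the log2 scale averaged over the 4 (adjusted p = 0.000152). PSPN, persephin, the ligand of GFRA4, averaged 3.86 ± 0.97 CPM in InsE, 2.93 ± 0.34 in InsF, 3.18 ± 0.19 in InsG, 3.51 ± 0.078 in InsH, against 3.46 ± 0.62 CPM in control, and did not pass the test. GAS1, a relative of the GFR-alpha proteins, had a log2 change of 0.27 ± 0.08 for the mean of the lines (adjusted p = 0.0335), a call lost in 10 of 18 alternatives. It was lost when control replicate 2 (0.17, adjusted p = 0.341), control replicate 1 (0.39, adjusted p = 0.0621), InsE replicate 1 (0.0647), InsH replicate 1 (0.0586), InsF replicate 2 (0.0558) or InsG replicate 2 (0.0524) was left out, against 0.00889 to 0.341 over all alternatives.

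The other genes of the pathway are described for the mean of the 4 lines against control, in which 13.1% of all genes were called higher and 14.5% lower and the median log2 change was 0.01. Among 7 tested proteins that bind or sort GDNF and GFRA1, 2 were higher and 3 lower, with a median of -0.11. SORCS1, a sorting receptor, rose by 0.60 ± 0.04 on the log2 scale (adjusted p = 1.71e-05), averaging 105 ± 3.3 CPM in InsE, 151 ± 4.8 in InsF, 138 ± 0.43 in InsG, 136 ± 5.3 in InsH, against 87.1 ± 0.31 CPM in control. The integrin gene ITGA1 rose by 0.51 ± 0.11 (adjusted p = 0.00831), the sorting receptor SORL1 fell by 0.29 ± 0.05 (adjusted p = 0.0019) and the heparan sulphate proteoglycan SDC3, which binds GDNF, fell by 0.25 ± 0.05 (adjusted p = 0.0054). Without control replicate 1 the counts were 2 higher and 0 lower, with SORL1 and SDC3 lost (adjusted p = 0.0529 and 0.0621). Without control replicate 2 they were 1 higher and 1 lower, with ITGA1 and SDC3 lost (adjusted p = 0.127 and 0.0696), and the same counts came from merging the control libraries and from both TPM scales. Over all alternatives the adjusted p of ITGA1 was 0.000575 to 0.622, that of SORL1 9.44e-05 to 0.172 and that of SDC3 3.79e-07 to 0.0696.

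Of 24 tested adaptors and effectors of RET, 0 were higher and 5 lower, with a median of -0.05. FYN, a Src-family kinase, fell by 0.82 ± 0.09 on the log2 scale (adjusted p = 0.000176), with 10.6 ± 0.56 CPM in InsE, 8.27 ± 0.27 in InsF, 9.46 ± 0.67 in InsG, 9.09 ± 1.4 in InsH, against 16.3 ± 1.3 CPM in control. The docking proteins IRS1 and DOK6 fell by 0.74 ± 0.10 (adjusted p = 0.000735) and 0.73 ± 0.08 (adjusted p = 0.00016), most in InsE, where the log2 change was -1.22 ± 0.14 and -1.40 ± 0.11. SOS1, which loads Ras with GTP, fell by 0.37 ± 0.07 (adjusted p = 0.00435), a call lost when either control library was left out (adjusted p = 0.0651 and 0.0556, against 2.51e-07 to 0.879 over all alternatives). On TPM the falls of FYN (adjusted p = 0.156 and 0.155) and DOK6 (0.219 in both analyses) missed the threshold. The number lower was 3 without control replicate 1 and 4 without control replicate 2 or with the control libraries merged, and 2 on both TPM scales.

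Of 11 tested inhibitors of RET or GDNF signalling, 2 were higher and 3 lower, with a median of -0.10. The receptor phosphatase PTPRF fell by 0.67 ± 0.05 on the log2 scale (adjusted p = 2.65e-05), the ubiquitin ligase CBL by 0.44 ± 0.06 (adjusted p = 0.000528) and the Sprouty gene SPRY1 by 0.34 ± 0.04 (adjusted p = 0.000276). SPRY2, another Sprouty gene, averaged 400 ± 19 CPM in InsE, 197 ± 8.8 in InsF, 198 ± 8.6 in InsG, 193 ± 7.2 in InsH, against 200 ± 4.6 CPM in control. Its call for the mean of the lines (0.23 ± 0.05, adjusted p = 0.00683) stood beside a log2 change of 1.00 ± 0.06 in InsE and of -0.05 to -0.01 in the other lines. It ended when control replicate 1 (adjusted p = 0.0682) or control replicate 2 (0.125) was left out, against 9.53e-06 to 0.125 over all alternatives. With either control library left out 0 inhibitors were higher and 3 lower. On both TPM scales 1 was higher and 1 lower, where the falls of PTPRF and CBL missed the threshold (highest adjusted p = 0.0994 and 0.0572).

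Of 10 tested genes that RET signalling induces in mouse kidney or germ cells, 2 were higher and 5 lower for the mean of the lines, with a median of -0.17. InsE taken alone had the opposite balance, with 5 higher, 2 lower and a median of 0.17. For InsE that balance was not kept on either TPM scale, where 1 was higher and 1 lower. The other lines each had 2 higher. For InsF, InsG and InsH the numbers lower were 4, 4 and 3, with medians of -0.23, -0.27 and -0.16. DUSP6, a phosphatase of ERK that is also induced by ERK, averaged 185 ± 0.89 CPM in InsE, 65.3 ± 3.7 in InsF, 69.9 ± 2.3 in InsG, 67.5 ± 2.0 in InsH, against 157 ± 2.0 CPM in control. It rose in InsE by 0.24 ± 0.06 on the log2 scale (adjusted p = 0.0153) and fell in InsF by 1.26 ± 0.06 (adjusted p = 1.57e-06), in InsG by 1.17 ± 0.06 (adjusted p = 3.76e-06) and in InsH by 1.22 ± 0.06 (adjusted p = 2.74e-06). That rise missed the threshold when control replicate 1 (adjusted p = 0.127), control replicate 2 (0.0843) or InsE replicate 1 (0.0805) was left out, with the control libraries merged (0.096) and on both TPM scales (0.328 and 0.33). It held in 12 of 18 alternatives, with 0.000657 to 0.33 over all of them. VSNL1, a neuronal calcium sensor, rose by 3.47 ± 0.48 on average over the lines (adjusted p = 0.000699). Its levels were low, with 1.25 ± 0.27 CPM in InsE, 0.732 ± 0.11 in InsF, 0.823 ± 0.025 in InsG, 1.17 ± 0.24 in InsH, against 0.0937 ± 0.085 CPM in control, the last from 1 and 3 counts. Over all alternatives the rise was 0.94 to 4.65 (adjusted p = 3.34e-09 to 0.0179). In InsF the rise of 3.03 (adjusted p = 0.00438) was 2.18 without control replicate 1 and missed the threshold (0.0503), and in InsG it missed it on log2(TPM + 1) (0.0709). The early response factor EGR3 rose by 2.25 ± 0.35 (adjusted p = 0.00135), with 0.45 to 2.68 over all alternatives (adjusted p = 1.98e-06 to 0.0392). EGR3 levels were also low, with 0.617 ± 0.12 CPM in InsE, 0.973 ± 0.23 in InsF, 1.2 ± 0.21 in InsG, 1.99 ± 0.24 in InsH, against 0.238 ± 0.099 CPM in control. VSNL1 and EGR3 passed the filter on low counts through the lines, where they are high, and were picked for the size of their change. Their p-values against control are therefore given as a description only. The chemokine receptor CXCR4 fell by 0.73 ± 0.22 (adjusted p = 0.0342), a call that held in 6 of 18 alternatives. It was lost when either control library (adjusted p = 0.285 and 0.125), InsE replicate 1 (0.0564), either InsF library (0.0567 and 0.0575), InsG replicate 2 (0.0542) or InsH replicate 2 (0.0534) was left out, against 0.0259 to 0.327 over all alternatives. With either control library left out or both merged, 2 of these genes were higher and 2 lower, and on both TPM scales 2 were higher and 3 lower.

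Of 13 tested factors that control the GDNF, GFRA or RET genes in enteric or kidney development, 1 was higher and 5 lower, with a median of -0.05. SLIT2, a guidance ligand that restricts the GDNF domain in the mouse kidney, averaged 23.8 ± 3.3 CPM in InsE, 72.4 ± 2.7 in InsF, 57.1 ± 0.022 in InsG, 56.0 ± 1.6 in InsH, against 27.1 ± 0.87 CPM in control. Averaged over the lines it rose by 0.84 ± 0.07 on the log2 scale (adjusted p = 3.34e-05), and in InsE its change was -0.16 ± 0.09 (adjusted p = 0.22). FOXC1, which also restricts that domain, fell by 0.48 ± 0.07 (adjusted p = 0.000964), with -0.14 ± 0.09 in InsE (adjusted p = 0.316). SALL1 and HOXD11, nuclear factors of the kidney mesenchyme, fell by 1.55 ± 0.34 (adjusted p = 0.00825) and 0.79 ± 0.22 (adjusted p = 0.0256). Leaving out control replicate 1 ended both calls (adjusted p = 0.148 for SALL1 and 0.153 for HOXD11), and HOXD11 was also not called without control replicate 2 (0.18), InsF replicate 1 (0.0534) and InsG replicate 1 (0.0544). Over all alternatives the adjusted p was 1.89e-06 to 0.148 for SALL1 and 0.0254 to 0.3 for HOXD11. The number lower was 3 without control replicate 1 or with the control libraries merged, and 4 without control replicate 2. On both TPM scales 2 were higher and 3 lower.

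**Figure D4:**
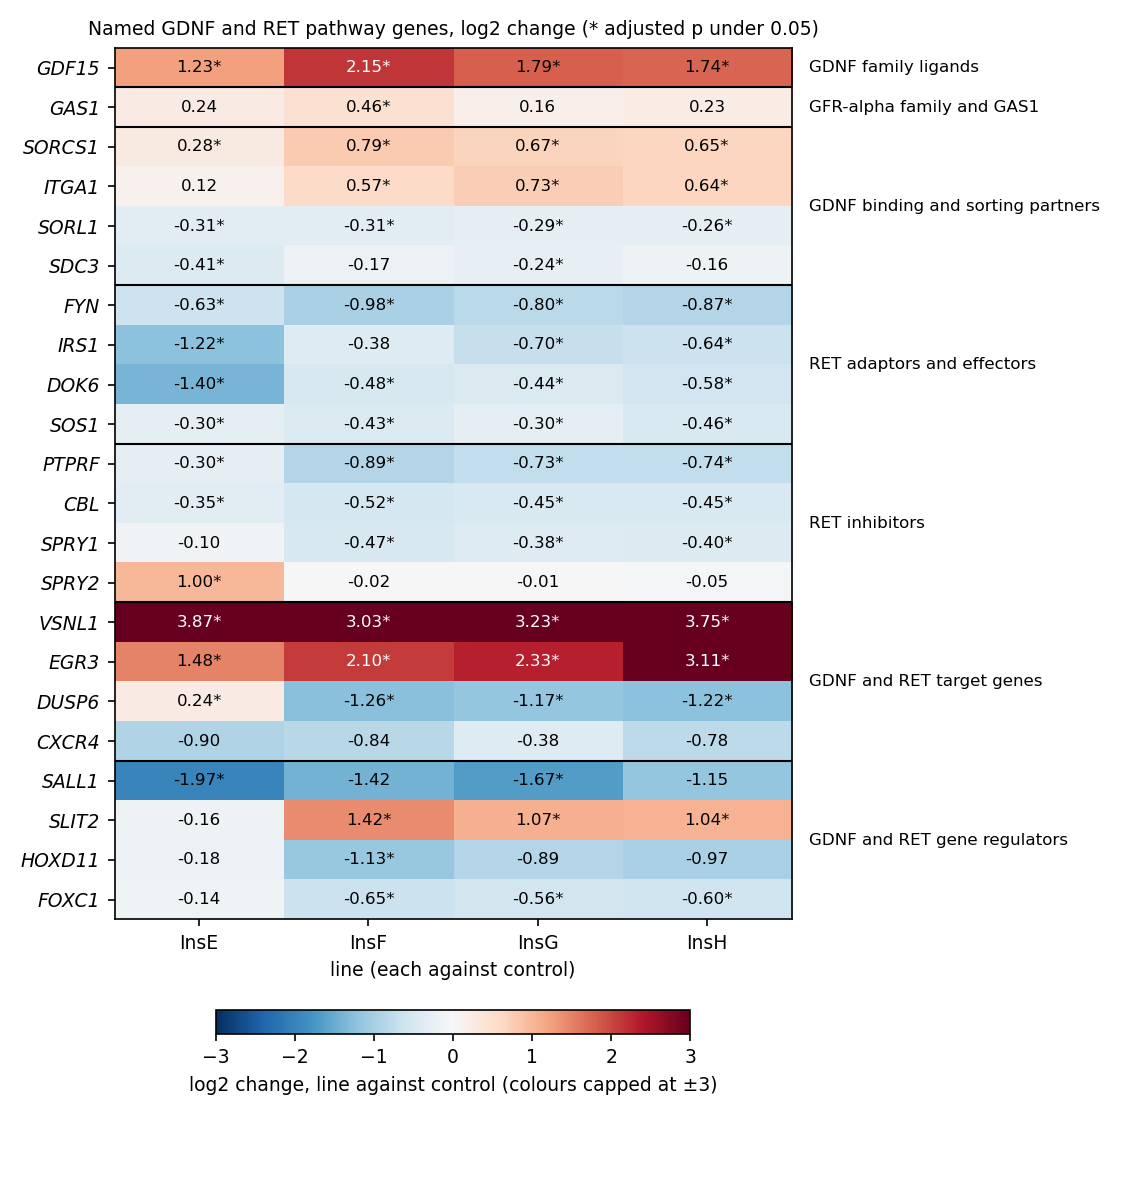
log2 change over control in InsE, InsF, InsG and InsH (columns) of the 22 named pathway genes that are no members (rows, grouped by role), written in each cell and shown as colour capped at ± 3. A star marks an adjusted p under 0.05. GDF15, SORCS1, VSNL1 and EGR3 are starred above 0 in all 4 lines, while DUSP6 is above 0 in InsE and below 0 in the other lines. VSNL1 and EGR3 passed the count filter through the lines alone, so their stars are descriptive.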

How the data were processed

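The members, the pathway lists and the comparison of InsE with the other 3 lines were chosen with earlier results of these data known. The authors deposited expected counts (RSEM's estimated counts) and length-corrected TPM values for each gene, made with STAR 2.5.3 and RSEM 1.3.2 on hg38, per the submitters' processing notes, which also name DESeq2 1.38.3. The annotation release and strand setting: not given in the sources used here. Symbols are those of the files, and 58261 of 58381 rows matched GENCODE release 29. A series-wide table with 10 value columns was not used.

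Expected counts were rounded and tested with edgeR 4.0.16 (robust quasi-likelihood, TMM, group as the sole term) in R 4.3.3, over 10 libraries with 5 residual degrees of freedom. The expression filter (minimum count of 10) left 15554 genes. P-values were two-sided and adjusted by Benjamini-Hochberg over all tested genes, with a threshold of 0.05. Depth was lower in replicate 2 (9.4 to 20.1 M counts). Alternatives were DESeq2 1.42.0, RLE factors, library sizes alone, no filter, a replicate block, limma 3.58.1 on log2(TPM + 1) and log2(TPM + 0.1), each library left out, and, chosen after seeing the data, the control libraries merged into 1. The fits were tested on simulated data.

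Named were all members, up to 4 called genes of each list with the largest change, the 6 genes nearest to GFRA1, and tested neighbours of GFRA1 within 1 Mb. GDNF-AS1 and PSPN were named after their values were seen. A count of 0 was read as up to 3 counts, which covers counting error only.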

Additional observations from a re-analysis of the deposited data

Results flagged for a closer look

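The change against control differed among the 4 lines, by edgeR's F test over all genes, for 2 of the 5 tested members other than GFRA1. It did so for 13.2% of all genes tested. The log2 changes of GDNF spanned 0.57 (adjusted p = 0.000965), with InsE the least lowered. Those of NCAM1 spanned 0.96 (adjusted p = 0.000126), with InsE alone below control.

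The same test called 10 of the 22 named pathway genes. All 22 were picked for being called against control in these data, so their share is not compared with that of all genes. Over the full lists the test called 0 of 2 further ligands, 0 of 1 GFR-alpha relatives and 3 of 7 binding or sorting partners. It called 4 of 24 RET adaptors and effectors, 6 of 11 inhibitors, 4 of 10 target genes and 3 of 13 regulators. DUSP6 spanned 1.5 on the log2 scale (adjusted p = 1.55e-06) and SPRY2 1.05 (adjusted p = 1.16e-05), both with InsE highest. SLIT2 spanned 1.58 (adjusted p = 3.37e-05) and SORCS1 0.52 (adjusted p = 0.0012), both with InsE lowest. DOK6 spanned 0.96 (adjusted p = 0.00168) and IRS1 0.84 (adjusted p = 0.0217), both with InsE lowest. PTPRF spanned 0.58 (adjusted p = 0.00316), SPRY1 0.37 (adjusted p = 0.00518) and FOXC1 0.51 (adjusted p = 0.0178), each with InsE nearest to control. EGR3 spanned 1.63 (adjusted p = 0.0488), with InsH highest.

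Some of these calls rest on single libraries. That of EGR3 was lost when any 1 of the 10 libraries was left out (adjusted p = 0.0649 to 0.192). That of IRS1 was lost on leaving out either control library (0.0547 and 0.055), either InsE library (0.193 and 0.0511) or InsF replicate 1 (0.0677), and that of FOXC1 on leaving out either InsE library (0.0875 and 0.105). Those of PTPRF (0.055) and SPRY1 (0.0595) were lost without InsE replicate 1.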

How the results depend on the processing

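GDNF in InsF, InsG and InsH and NCAM1 in InsE kept their direction and their call in all 18 alternatives. GDNF in InsE kept its direction in all of them and lost its call in 6, which were leaving out control replicate 1 (adjusted p = 0.063), control replicate 2 (0.0503) or InsE replicate 1 (0.0584), merging the control libraries (0.0509), and log2(TPM + 1) and log2(TPM + 0.1) (0.103 and 0.105). GFRA1 in InsE was -0.01 without InsE replicate 1, -0.0 on log2(TPM + 1) and -0.05 on log2(TPM + 0.1). With library sizes alone GFRA3 in InsE was 0.04 and the mean of the lines was 0.02 for RET and 0.04 for PSPN. On log2(TPM + 1) and log2(TPM + 0.1) the mean was 0.03 and 0.02 for NCAM1 and 0.13 and 0.20 for PSPN. SOS1 in InsG, no member, was called at -0.30 (adjusted p = 0.0476) and was 0.25 and 0.26 on those scales, not called (0.656 and 0.661). With 1 library left out, the changes that crossed 0 ranged as follows. GFRA1 in InsE was -0.01 to 1.57. GFRA3 was -0.05 to 0.04 in InsE, -0.03 to 0.27 in InsG and -0.06 to 0.33 in InsH. RET was -0.09 to 0.39 in InsG and -0.11 to 0.04 in the mean. NRTN was -0.77 to 0.17 in InsG and -0.23 to 0.0 in the mean. PSPN was -0.20 to 0.16 and RP11-129M16.4 -0.01 to 0.48 in the mean. With the control libraries merged PSPN was at 0.0. The cause was not tested.

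The count of called genes, in the order InsE, InsF, InsG, InsH and the mean of the lines, each against control, was 3611, 3461, 3163, 2863 and 4296. It was 5935, 5886, 5769, 5317 and 6679 with the replicate block, 1791, 1661, 1329, 1367 and 2236 on log2(TPM + 1), 1804, 1671, 1333, 1375 and 2238 on log2(TPM + 0.1), and 1639, 1565, 1226, 1180 and 1690 with the control libraries merged. DESeq2 called 2212, 2051 and 1856 genes in the lines InsF, InsG and InsH. With 1 library left out the counts were 1429 to 3516, 1446 to 3390, 1170 to 3142, 1108 to 2845 and 1501 to 4311. Any difference among the 4 lines gave 2055 genes, against 5442 with the block, 984 and 979 on TPM, 3660 without the filter, 1273 with merged control libraries and 700 to 1873 with 1 library left out. InsE against the other lines gave 3762, against 5942 with the block, 2458 by DESeq2 and 1956 to 3495 with 1 library left out. Differences among InsF, InsG and InsH gave 14, against 436 with the block, 33 by DESeq2, 256 without the filter, 4 on each TPM scale, 6 with merged control libraries and 1 to 14 with 1 library left out.

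In the order InsE, InsF, InsG, InsH and the mean of the lines, the share of calls that were higher was 46.4%, 49.1%, 48.5%, 48.6% and 47.5%. With library sizes alone it was 60.2%, 62.3%, 64.3%, 64.8% and 62.3%, and on log2(TPM + 1) 42.2%, 69.5%, 67.5%, 70.5% and 64.2%. Same-numbered libraries deviated together between all pairs of lines (r = 0.53 to 0.64) and not between a line and control (r = -0.01 to 0.10). The numbers were not treated as pairs, since there were 2 only and the labels tie them to no shared batch or day, so for comparisons among lines the block is a second reading. Under it GFRA1 among InsF, InsG and InsH had an adjusted p of 0.606, and 2 adaptors and effectors of RET were higher and 6 lower than in control. Under the block NCAM1 in InsH passed the threshold (adjusted p = 0.0443), as it did with library sizes alone (0.0448), against 0.0443 to 0.396 over all alternatives. Depth limits GFRA1 in InsE, which had 4 counts in InsE replicate 2 and 6 in control replicate 2.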
